A study of Homo sapiens with 4 samples.

Results

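MYC, MYCN, MYCL, MAX, MGA, MNT, MXD3 and MXD4 are described here in H1 cells, an established line of human embryonic stem cells with a wild-type genotype. The 8 genes were chosen by name, as the MYC paralogues and partners of MAX, from the 19775 genes of the deposited table. All 8 were listed, and all 8 passed the minimum mean normalized count of 10. The series has 4 labelled samples, each of H1 cells kept for 12 h: 2 in E8, a defined medium with insulin, FGF2 and TGFβ, and 2 in E8 with XMD892 at 1 µM. XMD892 is a small molecule that inhibits the kinase ERK5, the product of MAPK7. The column names of the table matched the 2 treated samples, and these 2 libraries, called replicate 1 and replicate 2, supply every value below. Other columns, a further one named for XMD892 at the same time among them, matched no sample and were not used. The untreated samples were not analysed here, and the values below therefore hold no effect of the compound. Separate cultures are not stated for the 2 libraries, whose spread may be technical.

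MYC proteins are basic helix-loop-helix leucine zipper transcription factors that bind DNA as dimers with MAX and promote growth, ribosome production and proliferation. MNT and the MXD proteins also pair with MAX, but recruit the SIN3 corepressor to the same sites and oppose MYC. MGA, a very large protein with a second DNA-binding domain of the T-box type, joins MAX to a variant polycomb complex, PRC1.6, which silences germline genes in embryonic stem cells. In pluripotent cells MYC and MYCN are both expressed and can stand in for each other in self-renewal. MYC is also a well-known target of growth factor signalling through mitogen-activated kinases.

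The dimers recognise the E-box CACGTG, a palindrome that reads alike on both strands. RefSeq promoters (GRCh38.p14, from 250 bases before to 50 after a start) were at hand for 7 of the 8 members, all but MYC, with 10 starts in all. CACGTG was found in 2 of the 10, those of MNT and MXD4, or 20%, against 8.87% of 17497 promoters of the table's genes. The related CACGCG, searched on both strands, was in 2 of the 10 (MGA and MXD3), against 16.5% of all promoters. With so few starts these shares describe letters only. The windows below show the E-box of 3 network genes and 1 of the 2 of ODC1, a standard MYC target that makes polyamines. The one not shown starts 6 bases after the RefSeq start, outside the annotated exons, and only sites before a start are printed. The E-box is in capitals, and all 4 read 5′ to 3′ on the gene's own strand. Flanks stop at the nearest annotated exon, at the RefSeq start, at the end of the promoter window or after 30 bases. The sites start 193 bases before the start of MNT (minus strand, chr17:2401218-2401283) and 238 before that of MXD4 (minus strand, chr4:2262312-2262359). Those of MLX (plus strand, chr17:42567020-42567067) and ODC1 (minus strand, chr2:10448013-10448071) start 50 and 29 bases before.
MNT: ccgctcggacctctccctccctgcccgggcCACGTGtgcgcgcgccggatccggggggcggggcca
MXD4: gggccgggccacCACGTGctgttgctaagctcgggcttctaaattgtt
MLX: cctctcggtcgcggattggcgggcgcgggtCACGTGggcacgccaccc
ODC1: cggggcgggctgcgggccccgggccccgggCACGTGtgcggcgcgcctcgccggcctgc

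Recovered reads summed to 18528689 in replicate 1 and 20217648 in replicate 2. Levels per length are given as RPKM, reads per kilobase of merged exons in GENCODE release 29 and per 1000000 reads of the library. The labelled cell type was checked on 10 markers of primed pluripotent cells. All 10 reached 1 RPKM in both libraries, against 59.5% of genes with a length. They summed to 2447 RPKM in replicate 1 and 2780 in replicate 2, but 5 of the 10 were higher in each library. The core pluripotency factor POU5F1 was 2.09-fold higher in replicate 2 and the DNA methyltransferase DNMT3B 1.62-fold higher in replicate 1, and without POU5F1 the other 9 markers summed to 1713 and 1350 RPKM. Of 35 marker symbols of other tissues, 16 were listed, and 1 of those with a length, COL1A2, reached 1 RPKM in both. Others reached it in a single library. In replicate 1 these were COL1A1 (7.85 RPKM, against 0.987 in replicate 2), TUBB3 (2.02 against 0.782) and KRT7 (1.03 against 0.955). In replicate 2 it was MIXL1 (2.54 RPKM, against 0.825 in replicate 1). The 3 listed fibroblast markers (of 7) summed to 14.1 and 4.94 RPKM. Of 6 mesoderm symbols 5 were listed, and the 4 with a length summed to 1.39 and 3.43 RPKM. T and TBXT among these symbols name the same gene, and TBXT was the one not listed. No blood or endothelial marker was listed. In bulk RNA, a change in the share of cells of a type and a change in RNA per cell cannot be told apart.

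MYCN and MYC dominated the network in these treated libraries. MYCN, the paralogue best known from the embryo and from neuroblastoma, stood at 50.1 RPKM in replicate 1 and 31.1 in replicate 2, a mean of 40.6 ± 13.4 (SD, n = 2). MYC stood at 44.8 and 28.7 RPKM, a mean of 36.8 ± 11.3. Both lay above 94% of genes: the mean of MYC was at percentile 94.3 and that of MYCN at 94.9 of the 19283 genes with a length. Their order did not go beyond the spread. Within a library the pair kept nearly the same proportion, with a ratio of MYC to MYCN of 0.894 in replicate 1 (95% counting interval 0.845 to 0.945) and 0.924 in replicate 2 (0.863 to 0.989). These exact binomial intervals reflect counting error alone, as no molecular identifiers were used. The ratio also depends on the gene models: with the length of the longest transcript, MYC came to 46.6 RPKM and MYCN remained at 40.6.

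MYCL, the remaining paralogue and the weakest transforming member of the family, was far lower. It stood at 3.72 RPKM in replicate 1 and 7.21 in replicate 2, a mean of 5.46 ± 2.47 (SD, n = 2). The range of MYCL and those of MYC and MYCN were well apart in both libraries. MYC exceeded MYCL by 12.03 times in replicate 1 and by 3.99 times in replicate 2. Of the summed RPKM of the 3 paralogues, MYCN made up 50.8% and 46.4%, MYC 45.4% and 42.9%, and MYCL 3.77% and 10.8%. Across the libraries MYCL took the most uneven share of the 3.

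MAX, the common partner of the MYC, MXD, MNT and MGA proteins, came next by mean RPKM, although MYCL was above it in replicate 2 and their gap lay within the spread. It stood at 7.35 and 6.49 RPKM, a mean of 6.92 ± 0.608 (SD, n = 2), and was the steadiest member. The gap between MYC and MAX, 29.8 RPKM, was larger than their combined SD of 11.3, and their ranges did not overlap. The 3 MYC paralogues together had 13.4 times the RPKM of MAX in replicate 1 and 10.3 times in replicate 2, or 10.9 and 8.65 times with the longest transcript as the length. These are transcript levels and say nothing of protein amounts.

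The remaining partners had means between 2 and 6 RPKM and could mostly not be ordered. MGA stood at 5.91 and 4.02 RPKM (mean 4.96 ± 1.34, SD, n = 2), although by normalized count it came right after MYC and MYCN, at 2076 and 1512, because its merged exons run to 17651 bases. MXD4, an antagonist linked to cell-cycle exit and differentiation, stood at 4.13 and 5.06 RPKM (4.59 ± 0.658). MXD3, a family member that is expressed in dividing cells around S phase, stood at 2.25 and 3.84 RPKM (3.05 ± 1.12). MNT, the antagonist present in most proliferating cells, was the lowest member by mean RPKM, at 2.81 and 1.496 RPKM (2.15 ± 0.927). In replicate 1, and by mean normalized count, MXD3 was lower. From MAX down, the mean order was MAX, MYCL, MGA, MXD4, MXD3 and MNT, and of its 5 neighbouring pairs only MXD4 and MXD3 differed by more than their combined SD, with ranges apart. MYCL ranked below MAX, MGA and MXD4 in replicate 1 and above them in replicate 2. With the longest transcript as the length, the means were 8.50 RPKM for MYCL, 3.76 for MNT, 6.89 for MXD3 and 7.67 for MXD4, each over 1.5 times the value above. MXD4 and MXD3 then overlapped, MGA (6.07 RPKM) came below MXD3, and of the neighbours below MAX only MGA and MNT differed by more than their combined SD, by 2.310 against 2.306.

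**Figure D1:**
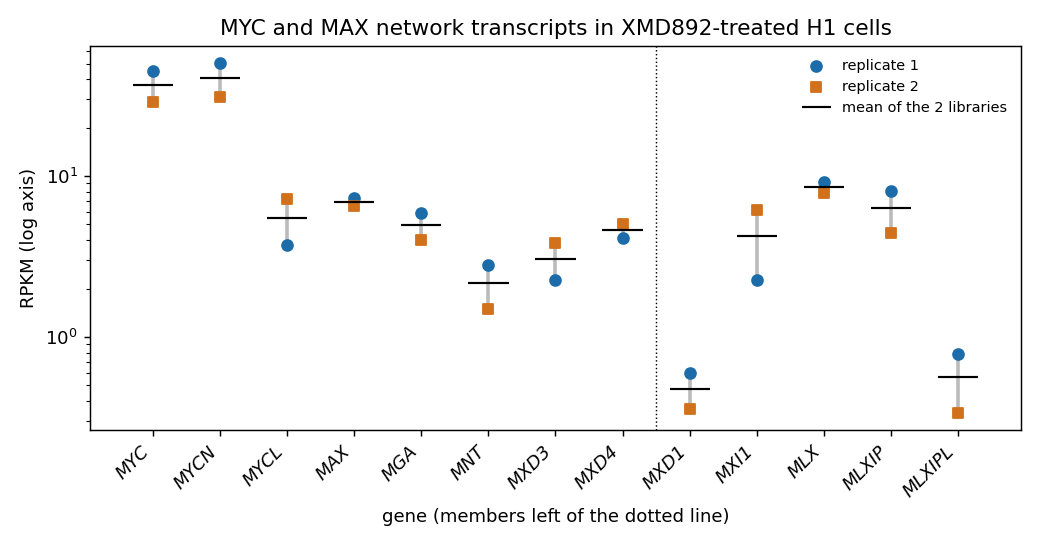
RPKM (log axis) of the 8 members, left of the dotted line, and of 5 related network genes in XMD892-treated H1 cells; circles are replicate 1, squares replicate 2 and black bars the mean. MYC and MYCN lie between 28.7 and 50.1 RPKM in both libraries, and all other genes shown lie below 10 RPKM.

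The gene models set limits on some of these counts. MYCN is a plus-strand gene on chromosome 2 (15940564 to 15947007) that shares 98 exon bases, 3.77% of its exon length, with the antisense gene MYCNOS. MYCNOS had 63 and 62 reads, against 2415 and 1636 for MYCN. MXD3 is a minus-strand gene on chromosome 5 (177301461 to 177312757), and 22.5% of its exon length overlaps PRELID1 on the other strand and 18.0% overlaps RAB24 on its own. Of the other members, MNT overlaps an antisense transcript over 12.2% of its exon length, and MAX, MGA, MXD4 and MYCL overlap others over at most 4.46%. The strand setting of the counting is not given in the sources used here, so reads from such stretches cannot be told apart. MYC itself, on the plus strand of chromosome 8 (127735434 to 127741434), has 3 merged exons and no exon shared with another annotated gene. MYCL (chromosome 1, 39895426 to 39902256) and MAX (chromosome 14, 65006174 to 65102695) are minus-strand genes. MGA (chromosome 15, 41621224 to 41773081) is on the plus strand, and MNT (chromosome 17, 2384060 to 2401118) and MXD4 (chromosome 4, 2247432 to 2262294) are on the minus strand. All are on GRCh38.

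The 2 treated libraries were then set against each other on the authors' size factors. With 1 library on each side there is no replicate check and no p-value, and these 2 libraries do not show which of them is the unusual one. MYC had 2672 normalized counts in replicate 1 and 1840 in replicate 2, and was 1.45-fold higher in replicate 1 (counting interval 1.37 to 1.54). MYCN had 2592 and 1726, and was 1.502-fold higher in replicate 1 (-0.68 to -0.50 as log2 of replicate 2 over replicate 1). These abundant paralogues were both higher in the same library, by a similar factor. MYCL went the other way, with 375 and 779 normalized counts, 2.08-fold higher in replicate 2 (1.83 to 2.37). It was the only member at least 2-fold apart, against 10.9% of the 16148 genes tested.

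Among the antagonists the direction was also mixed. MNT had 487 normalized counts in replicate 1 and 279 in replicate 2, and was 1.75-fold higher in replicate 1 (-1.03 to -0.58 on the same log2 scale). MXD3 had 231 and 422 and was 1.83-fold higher in replicate 2 (1.55 to 2.17). MXD4 had 580 and 762 and was 1.31-fold higher in replicate 2 (1.17 to 1.47). Both MXD genes were therefore higher in the library where MYC and MYCN were lower. MGA, at 2076 and 1512, was 1.37-fold higher in replicate 1 (1.28 to 1.47). MAX, at 647 and 613, was 1.06-fold higher in replicate 1 with an interval of 0.941 to 1.19 that includes equal levels.

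In all, 5 members were higher in replicate 1 and 3 in replicate 2; of all tested genes 47.9% were higher in replicate 1. The counting interval left out equal levels for 7 of the 8, against 58.1% of tested genes. At least 1.5-fold separated 4 of the 8 (MYCN, MYCL, MNT and MXD3), against 26.6% of tested genes. For 2 of these, MYCN and MNT, replicate 1 was the higher, as for 13.7% of tested genes, and for 2, MYCL and MXD3, replicate 2, as for 12.9%. MYCN lies just past that line and MYC just short of it. Gaps are larger among low genes, and the members are not low: among the 6655 genes with a mean normalized count within the members' range, 326 to 2256, 12.8% were at least 1.5-fold apart and 68.3% had an interval without equal levels. The median absolute log2 difference was 0.56 for the members and 0.32 for all tested genes. The median signed difference, replicate 2 minus replicate 1, was -0.27 and 0.023.

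**Figure D2:**
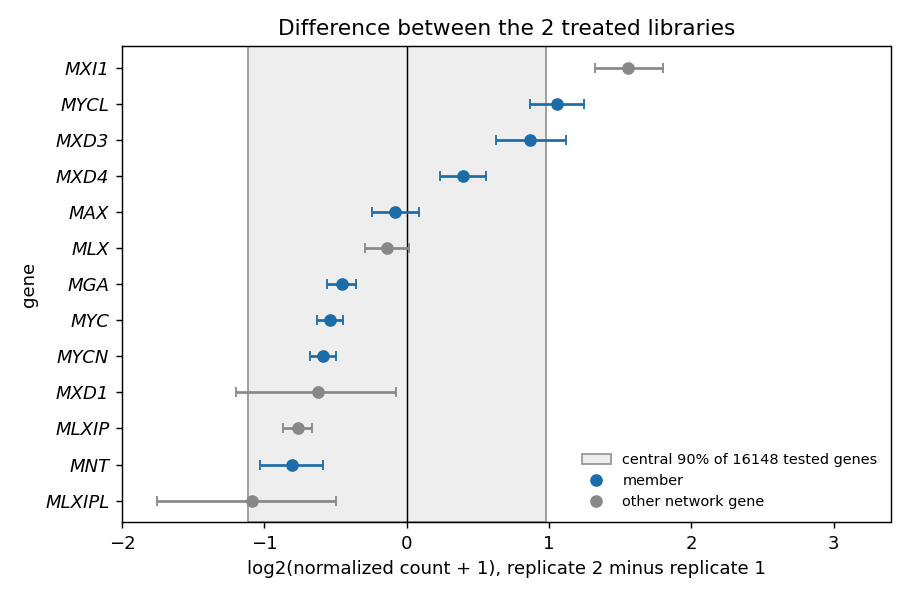
Difference in log2(normalized count + 1), replicate 2 minus replicate 1, for the 8 members (blue) and 5 other network genes (grey), with 95% counting intervals; the shaded band holds the central 90% of the 16148 tested genes. MYCL, at 1.05, is the only member outside the band, and MXI1, at 1.56, has the largest gap of the genes shown.

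The rest of the MAX network was measured too. MXI1, a MAX partner of the MXD type, had 192 reads in replicate 1 and 576 in replicate 2 and was 2.95-fold higher in replicate 2 (2.50 to 3.49), at 2.25 and 6.18 RPKM. MXD1 was low, at 0.595 and 0.358 RPKM on 70 and 46 reads. MXI1 is known as a target of the hypoxia-inducible factor HIF1. A list of 21 hypoxia targets, without MXI1, had 18 genes higher in replicate 2 and 3 (14.3%) in replicate 1, against 47.9% of all tested genes. The list was chosen after the values were seen, so these counts describe it and test nothing. Its median log2 difference was 1.03, against 0.023 for all tested genes, and it summed to 949 and 1377 RPKM. LDHA is in this list and among the MYC-activated genes below. The part of hypoxia in the values of MXI1 and the members was not tested. The parallel MLX branch, which senses glucose metabolites, was also present. MLX, the MAX-like partner, stood at 9.19 and 7.79 RPKM, and 18.1% of its exon length overlaps PSMC3IP on the other strand. MLXIP (MondoA) stood at 8.12 and 4.45 RPKM, 1.70-fold higher in replicate 1, and MLXIPL (ChREBP) at 0.785 and 0.339. Of these 5 genes 3 reached 1 RPKM in both libraries, against 59.5% of genes with a length.

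Summed over MNT, MXD1, MXD3, MXD4 and MXI1, the antagonists came to 12.03 RPKM in replicate 1 and 16.9 in replicate 2. The 3 MYC paralogues summed to 98.6 and 67.1 RPKM. The ratio of the paralogue sum to the antagonist sum was 8.19 in replicate 1 and 3.96 in replicate 2. With the antagonists among the 8 members alone, leaving out MXI1 and MXD1, it was 10.7 and 6.45. These ratios depend on the gene models: with the longest transcript as the length they were 5.48 and 2.78 for all 5 antagonists and 6.67 and 3.99 for the 3 members. The paralogue sum thus exceeded that of the antagonists in both libraries, by a factor that differed between them.

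**Figure D3:**
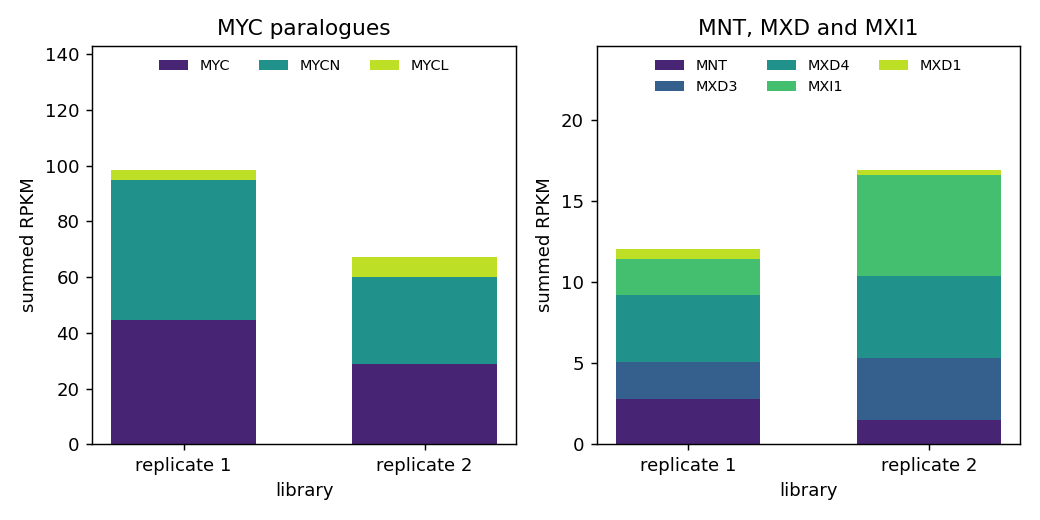
Summed RPKM of the MYC paralogues (left) and of MNT, the MXD genes and MXI1 (right) in each treated library; each bar is 1 library, and the vertical axes differ. The paralogues sum to 98.6 and 67.1 RPKM and the antagonists to 12.03 and 16.9.

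Coactivators that MYC recruits were all expressed. Of 15 genes, which include the scaffold TRRAP and subunits of acetyltransferase and remodelling complexes, each was at or above 1 RPKM in each library. Of all genes with a length, 59.5% were. The median of the 15 was 12.2 RPKM, against 2.31 for all genes with a length. The ATPase RUVBL2 was the highest at 47.7 ± 2.47 RPKM (SD, n = 2) and the acetyltransferase KAT5 the lowest at 6.03 ± 0.607. Of the 15, 10 were higher in replicate 1 (66.7%), against 47.9% of all tested genes. When scaled by library totals 13 were, but that scale also moved the median log2 difference of all genes from 0.023 to -0.078. The remodelling ATPase EP400 stood at 10.3 and 4.75 RPKM.

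Regulators of MYC protein stability were also well expressed. The table listed 17 of 18, each at or above 1 RPKM in each library, against 59.5% of genes with a length. Their median was 21.1 RPKM, and 9 (52.9%) were higher in replicate 1, against 47.9% of all tested genes. SET, an inhibitor of the phosphatase PP2A, was the highest at 373 ± 24.2 RPKM. FBXW7, the ubiquitin ligase receptor that marks phosphorylated MYC for degradation, was the lowest at 2.12 ± 0.141 RPKM, on 457 and 454 reads. The ubiquitin ligase HUWE1 and the deubiquitinase USP36 were 1.65-fold and 1.69-fold higher in replicate 1.

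Of the corepressor and silencing partners, 1 of 14 and 1 of 12 were at least 1.5-fold apart, against 26.6% of all tested genes and 12.8% of those in the members' range of counts. All 14 genes of the SIN3 list, the complex that MNT and MXD proteins bring to DNA, were at or above 1 RPKM in each library. Of all genes with a length, 59.5% were. The median of the 14 was 18.1 RPKM. Of the 14, 10 were higher in replicate 2 and 4 (28.6%) in replicate 1, against 47.9% of all tested genes. The median log2 difference of the 14 was 0.28. SIN3A and SIN3B themselves stood at 8.90 ± 0.566 and 10.1 ± 2.08 RPKM (SD, n = 2), and the largest gap was that of ARID4A, with 176 and 348 reads, or 1.94-fold. Of 12 partners of MGA in PRC1.6, 11 (91.7%) were at or above 1 RPKM in each library, against 59.5% of genes with a length. The median of the 12 was 10.9 RPKM. CBX1, a reader of methylated histone H3, was the highest at 82.8 ± 11.5 RPKM. L3MBTL2, a core subunit, had 739 and 447 reads and was 1.68-fold higher in replicate 1, the same direction as MGA. YAF2, at 19 and 29 reads, was the lowest.

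Germline genes that PRC1.6 keeps silent were mostly low or not listed. The table listed 8 of 17 such genes. Their median was 0.124 RPKM, and 1 of the 8 (12.5%) was at or above 1 RPKM in each library, against 59.5% of genes with a length. TDRKH, a Tudor protein of the piRNA pathway, was the exception at 5.49 and 7.33 RPKM. DAZL, a germ cell RNA-binding protein, had 17 reads in replicate 1 and 2 in replicate 2, and MOV10L1 had 1 and 2. A gene that is not listed is not reported as 0. RefSeq promoters, looked up for listed genes alone, were at hand for all 8, with 13 starts. Of these 6 held CACGTG (46.2%) and 7 held CACGCG (53.8%), against 8.87% and 16.5% of all promoters. With so few starts these shares, too, describe letters only.

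Genes that MYC is known to activate were high. Of 50 listed genes, mostly for ribosome production, nucleotide and polyamine synthesis and translation, 48 were at or above 1 RPKM in each library. That was 96%, against 59.5% of genes with a length. The median of the 50 was 27.3 RPKM. CACGTG stood in 22 of the 52 promoters at hand for 40 of them (42.3%), against the 8.87% over all promoters. NPM1, the nucleolar chaperone nucleophosmin, was the highest at 589 and 688 RPKM. ODC1, shown above for its E-box, stood at 146 and 83.6 RPKM. Replicate 1, the library with more MYC and MYCN, had the higher level of 35 of the 50 (70%), against 47.9% of all tested genes, and the median log2 difference was -0.28. At least 1.5-fold separated 13 of the 50 (10 toward replicate 1, 3 toward replicate 2). The share was 26.6% of all tested genes and 12.8% of those in the members' range of counts, outside which some of the 50 lie. PPRC1, a coactivator of mitochondrial gene expression, had 2744 and 1327 reads, a 2.10-fold gap. EIF4A1, a translation helicase, had 201 and 87 reads and IPO4, an importin, 22 and 11, but 29.8% of the exon length of EIF4A1 is shared with the readthrough gene SENP3-EIF4A1 and 69.3% of that of IPO4 with AL136295.4, and what this takes from their counts was not tested.

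Genes that MYC is known to repress were at lower levels than the activated ones, but not low beside all genes. All 16 were listed. Their median was 3.98 RPKM, against 2.31 for all genes with a length. At or above 1 RPKM in each library were 13 (81.25%), against 59.5% of genes with a length. Of the 15 tested, replicate 2 had the higher level of 9 and replicate 1 of 6 (40%), against 47.9% of all tested genes. The median log2 difference was 0.34. TXNIP, an inhibitor of glucose uptake and a target of MondoA, had 207 and 834 reads, 3.96-fold more in replicate 2, and CCNG2, an atypical cyclin of resting cells, had 220 and 686, 3.07-fold more. CDKN1A (p21), a cell-cycle inhibitor, went the other way at 249 and 140 reads. CDKN1C was the highest at 26.2 and 33.1 RPKM, and CDKN2B had 1 and 2 reads. These lists were chosen with earlier results of these data known, and their counts describe 2 libraries.

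**Figure D4:**
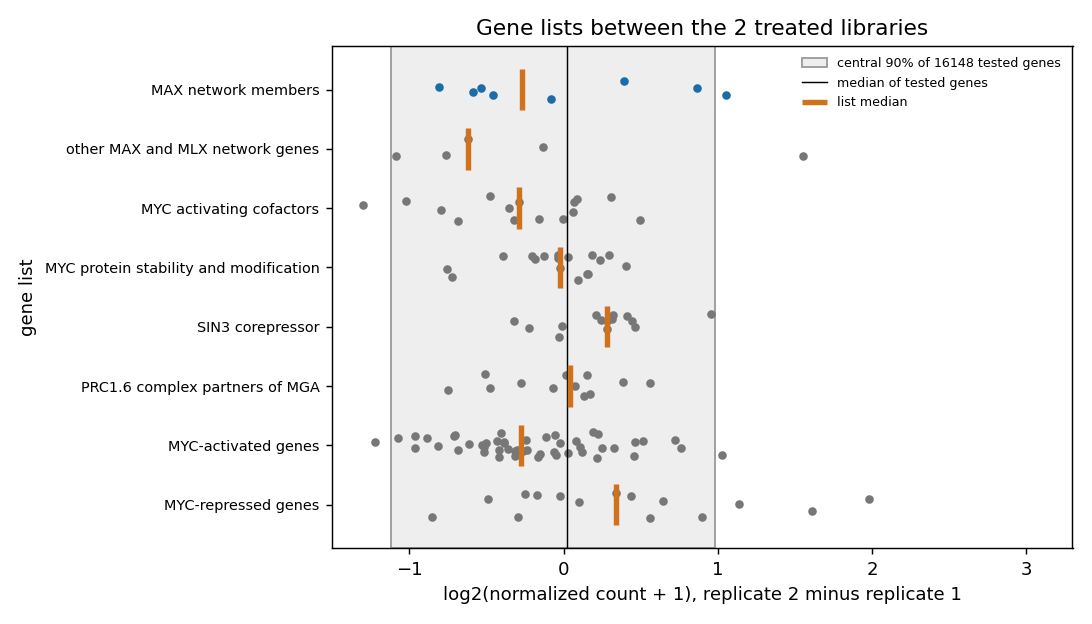
Difference in log2(normalized count + 1), replicate 2 minus replicate 1, for each tested gene of 8 lists (points; vertical jitter has no meaning), with list medians in orange and the central 90% of the 16148 tested genes shaded. The median is -0.28 for MYC-activated genes, 0.34 for MYC-repressed genes and -0.27 for the 8 members.

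The difference between the libraries also moved weakly with properties of the transcripts. Across 15793 tested genes with a length, which are not independent, Spearman's rho of the difference was -0.14 with merged exon length and -0.089 with GC content. With the genes in 5 equal classes of length, the median log2 difference was 0.16 in the shortest class and -0.068 in the longest. MGA, MNT and MLXIP, which were higher in replicate 1, belong to the longest class, whereas MYC and MYCN belong to class 2 from the short end, where the median was 0.098. By GC content both belong to class 4 of 5, where it was -0.067, the lowest of the GC classes. The part of length and GC content in the members' differences was not tested.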

How the data were processed

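RNA of H1 cells was poly(A)-selected and sequenced in paired ends on an Illumina instrument, per the labels' protocols. The deposited table holds a normalized signal: per library, read counts over a size factor set by the authors, as 100% of 19775 values per column, within 0.01 reads, were whole multiples of 1 step. Trimmomatic 0.36, STAR, featureCounts 1.5.3, DESeq2 1.26.0 and hg38 are named without roles, per the submitters' processing notes; the annotation is not given in the sources used here. Of 9 columns, 7 matched no sample by name (a further XMD892 column at 12 h, XMD892 columns of later times, and untreated columns of another time than the untreated samples' labels) and were not used. The test of XMD892 against E8, planned with edgeR, was therefore not run.

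Recovered reads gave size factors of 0.932 and 0.948. RPKM used GENCODE release 29 merged exons, available for 19283 symbols. Differences are log2(normalized count + 1) over genes with a mean of at least 10; this scale understates those of low genes. Intervals are exact binomial (Clopper-Pearson, 95%). They were run on simulated reads with counting error alone, which cannot show how they cover any other spread between libraries. Called means past a stated fold, or an interval without equal levels. TMM came from edgeR 4.0.16 in R 4.3.3; the rest ran in Python 3.11.15 with scipy 1.17.1.

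The 11 gene lists, that of the members among them (181 genes, 169 listed), were chosen with earlier results of these data known. The hypoxia list was added after the values were seen. Named from each list were the highest and lowest gene per length and the 2 with the largest gap, with a few chosen after seeing values (SIN3A, SIN3B, ODC1, CDKN1A); some items are not reported here. With 2 libraries, no gene of like pattern is named. Genes on chromosome 8 were left out of the lists' promoter counts.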

Additional observations from a re-analysis of the deposited data

How the results depend on the processing

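No paired analysis was possible because the columns used hold the treated group alone. The planned test of XMD892 against E8 was therefore not run, and no DESeq2 fit was made. Leaving out a library gives levels but no difference. All 8 members reached 1 RPKM in both libraries under each scale and length tried. With the main scale and length, 59.5% of genes with a length did so. Again 5 members were higher in replicate 1 with total reads, TMM or a pseudocount of 5. At least 1.5-fold separated 5 members with total reads in place of 4; that scale moved the median of all genes from 0.023 to -0.078 (log2), and MYC to -0.64, MYCN to -0.69 and MGA to -0.56. Of all genes, 6648 were at least 1.5-fold apart without a minimum and 2429 with a minimum of 50, against 4294. At 5 RPKM in place of 1, 1 of the other network genes (against 3), 5 MYC-repressed genes (against 13) and 1 of the genes named for MYC or beside it (against 4) reached the level in both libraries. So did 3 of the 8 members and 11 of the 21 hypoxia targets (against 18). Of all 19283 genes with a length, 6454 did so, against 11482 at 1 RPKM. The other lists stayed within 1.5 times. With total reads as the scale, the genes higher in replicate 1 went from 10 to 13 of 15 coactivators, from 5 to 7 of 12 PRC1.6 partners and from 7 to 10 of 20 other E-box factors. They went from 9 to 11 of 17 stability regulators, from 35 to 37 of 50 MYC-activated genes and from 6 to 7 of 15 MYC-repressed genes. The other network genes, SIN3 genes, germline genes and genes named for MYC or beside it kept their counts. The share of all genes was not counted on that scale, and 47.9% holds for the size factors alone. The ratio of MYC paralogues to member antagonists, with lengths changed after seeing the data, had a mean of 5.33 against 8.59. Genes with few reads, such as CDKN2B (1 and 2) and MOV10L1 (1 and 2), have wide counting intervals.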

Other observations

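Other helix-loop-helix factors that bind E-boxes were present beside the MAX network. The table listed 20 of 21 such genes, and 15 (75%) were at or above 1 RPKM in each library, against 59.5% of genes with a length. The median of the 20 was 7.51 RPKM. SREBF2, the regulator of cholesterol synthesis, was the highest at 55.1 and 58.8 RPKM, above MYC and MYCN in both libraries, and the melanocyte factor MITF the lowest at 0.128 and 0.110. With the authors' size factors 7 of the 20 were higher in replicate 1, against 47.9% of all tested genes. With total reads as the scale 10 were, but that scale also moved the median log2 difference of all genes from 0.023 to -0.078. BHLHE41, a repressor of the circadian clock, had 1 read in replicate 1 and 34 in replicate 2, a ratio of 33.4 with a counting interval of 5.61 to 1359. The clock activator ARNTL had 310 and 184 reads.

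Of 6 genes named for MYC or lying beside a paralogue, the table listed 5. At or above 1 RPKM in each library were 4 (80%), against 59.5% of genes with a length. MYCBP, which encodes a MYC-binding protein, was the highest at 9.27 and 10.3 RPKM, and MYCBPAP the lowest at 10 and 15 reads.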
